A study of Ovis aries with 24 samples.

Results

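The ductus arteriosus is the muscular fetal artery that carries blood past the lungs, from the pulmonary artery to the descending aorta. Its maturation in the womb was followed here by comparing 4 ductus arrays of near-term fetal sheep, at 136 days of gestation, with 4 of preterm fetuses, at 97 days, where full term is 145 days. These are the arrays whose titles give the fetal ductus at 140 and at 100 days, and they make 8 of the 24 arrays of the study. The other 16 hold the ascending aorta of fetuses at the same stages and both vessels of lambs 12 hours after birth, with 4 animals in each of the 6 groups. No treatment or genotype was given for the animals, and each sample was total RNA from a whole homogenised vessel segment, labelled with Cy3 and put on a 1-colour Agilent sheep array. Whether a ductus and an aorta of the same number came from 1 fetus was not given in the sources used here.

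Before birth prostaglandin E2 and nitric oxide relax the smooth muscle of the ductus and hold the vessel wide, and it closes after birth when oxygen rises and prostaglandin falls. Over the last part of gestation its muscle gains contractile proteins and calcium handling, and the preterm ductus is known for failing to close. Fetal vessel walls also grow under insulin-like growth factors and remodel their matrix through metalloproteinases, and late in gestation fetal cortisol matures many tissues.

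Levels are log2 of the scanner's processed signal minus the 75th percentile of the same array, so that 0 is the 75th percentile, and arrays are always given in the order of replicates 1 to 4. A change is the near-term mean minus the preterm mean on that log2 scale, with its standard error (SE) from a limma fit over all 24 arrays, and a probe was called at a Benjamini-Hochberg adjusted p under 0.05. All 8 arrays of a stage were hybridised on 1 slide, preterm on 1 and near term on another, so stage and slide cannot be told apart in any value below. Nor can a lower share of cells of a type in the wall be told apart from less RNA per cell.

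The 8 ductus arrays differed in how well they resolved dim spots. On preterm arrays 1 and 4 and near-term arrays 1 and 3 the detection limit that the scanner software derives from the added control RNAs lay between 1.94 and 2.55, and on the other 4 between 0.42 and 1.02. Near-term arrays 1 and 3 had 94.2% and 94.4% of spots well above background, against 72.0% and 66.2% on near-term arrays 2 and 4 and 71.4% to 87.1% on the preterm arrays. Preterm array 4 stood apart in another way: among 9543 probes well above background on all 8 arrays, 565 lay more than 1 log2 unit below the 3 other preterm arrays, against 9 to 101 for each of the other 7 arrays set against its own group. Each limit class holds 2 preterm and 2 near-term arrays, so the stages could be compared within it, but the limit still differed by stage there. In the high class it was 2.55 and 2.44 near term against 2.08 and 1.94 preterm. In the low class it was 1.02 and 0.44 near term against 0.43 and 0.42 preterm. A difference within a class is therefore not free of the limit. Within the 4 arrays of low limit the median change over all tested probes was 0.07, and within the 4 of high limit it was 0.40. Over all 8 arrays it was 0.22, and it was 0.06 over the 9543 brighter probes but 0.93 over the 4454 probes that were dimmer on at least 1 array. The plot of change by signal strength shows where this shift lay. It also moved with the scaling, from 0.22 to -0.04 after median centring, 0.00 after quantile normalisation and 0.40 after another background correction, and values for dim genes are read against it below.

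**Figure D1:**
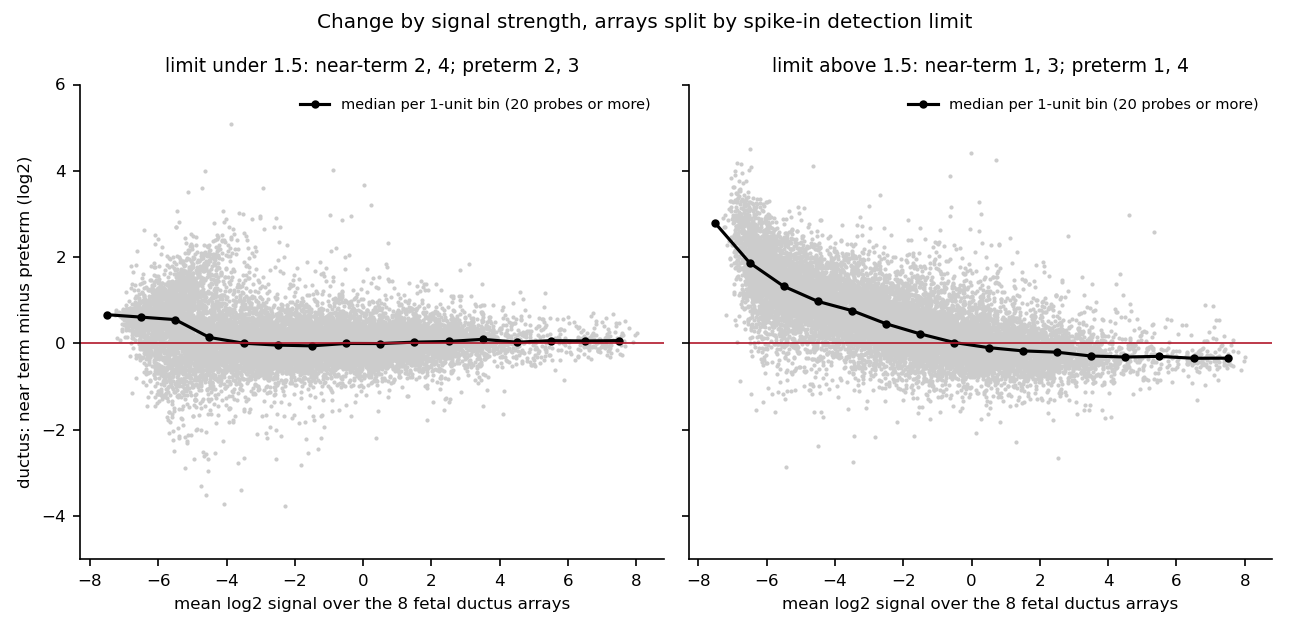
Change from preterm to near term in the ductus (log2) against the mean log2 signal over the 8 fetal ductus arrays, for each tested probe (grey), with the median of each 1-unit bin (black); left, the 4 arrays with a detection limit under 1.5, right, the 4 with a limit above 1.5. The medians stay near 0 for bright probes on the left, while on the right they climb steadily toward the dim end. For probes that are dimmer on at least 1 array the median change is 0.49 on the left and 1.30 on the right.

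Of 13997 tested probes, 44 were called between the stages of the ductus, 22 higher near term and 22 lower, which is 0.314% in all and 0.157% in each direction. At an unadjusted p under 0.05 there were 1582 probes (11.3%). The called changes ran from 3.00 to -2.71, and the smallest was 0.59 in size. Among the called probes 40 were well above background on all 8 arrays. Only 5 carry a gene name: both probes of MMP2, 1 probe of IGF2, 1 of IGFBP2 and 1 of CD9. The array names 1447 of its 15008 probes for 815 genes, and 777 of these genes were tested, each through the probe with the highest mean signal. By that probe 2 of 777 genes were called (0.257%), MMP2 and IGFBP2, both lower near term. A looser criterion, that all near-term arrays lie on the same side of all preterm arrays, was met by 839 probes (5.99%), 401 higher (2.86%) and 438 lower (3.13%), and by 44 named genes (5.66%), 29 higher (3.73%) and 15 lower (1.93%); stages without overlap below are stages of that kind. The number of calls rested on the arrays and the scaling: it was 12 after median centring (3 higher and 9 lower), 44 after quantile normalisation (18 higher and 26 lower), 169 with the limit class as a block, 90 when only the 9543 brighter probes were tested, 6 without near-term arrays 1 and 3, and between 11 and 54 when any 1 ductus array was left out. Without preterm array 4 it was 14, without near-term array 1 it was 14, without near-term array 3 it was 11, and without preterm array 2 or 3 it was 26 or 28. In the fit of the 8 ductus arrays alone it was 2.

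**Figure D2:**
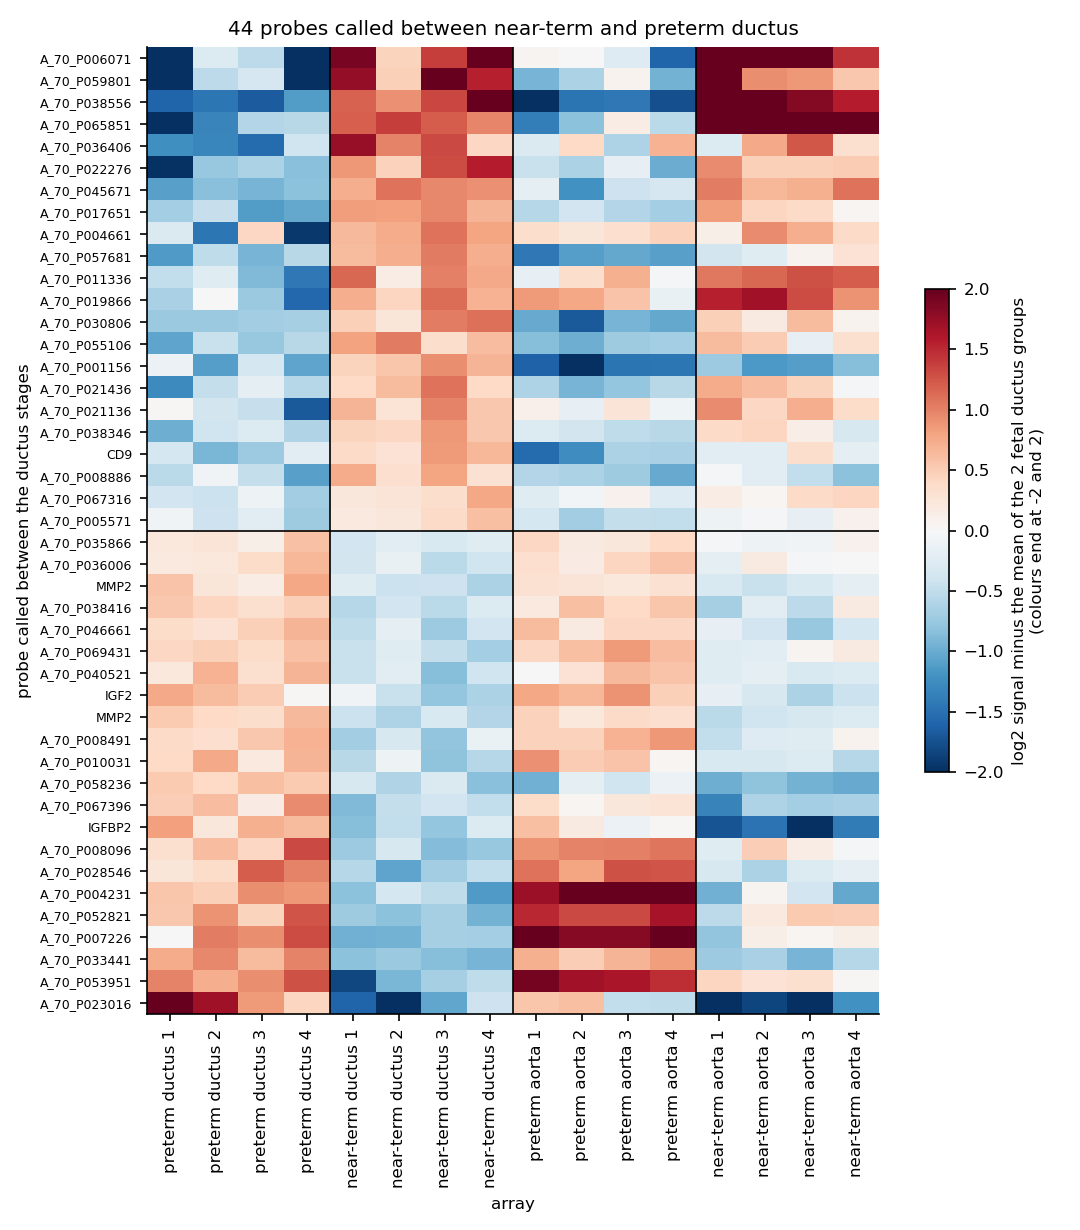
The 44 called probes (rows, by gene symbol or probe name, ordered by change) on the 16 fetal arrays (columns); colour is the log2 signal minus the mean of the 2 ductus groups, cut at -2 and 2. The upper 22 rows are higher on the near-term ductus arrays and the lower 22 rows lower. Aorta columns are also coloured against the ductus mean, so their colour shows their level next to the ductus. The near-term minus preterm difference in the aorta has the same sign as in the ductus for all 44.

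The clearest fall in a named gene was that of MMP2, gelatinase A, a metalloproteinase that degrades collagen type IV and other matrix proteins. Its level was 0.40, 0.29, 0.23 and 0.53 on the preterm arrays and -0.55, -0.73, -0.42 and -0.70 on the near-term arrays. Every near-term array lay below every preterm array, and the values within each stage spanned less than the gap between them. The group means were 0.36 ± 0.13 and -0.60 ± 0.15 (SD, n = 4), a change of -0.96 ± 0.15 (SE), or 1.95-fold lower (limma adjusted p = 0.00348). Its other probe fell by 0.87 (adjusted p = 0.0217), also without overlap. The fall was -0.98 within the low-limit arrays and -0.95 within the high-limit arrays. It stayed called without any 1 of the 8 arrays, with adjusted p from 0.00695 to 0.0244. The call was lost after median centring (adjusted p = 0.0823), with the other background correction (0.0997) and in the fit of the 8 ductus arrays alone (0.241), where the differences were -1.22, -0.74 and -0.96. In the aorta MMP2 fell by 0.72 (adjusted p = 0.0279).

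Both remaining named falls were in the insulin-like growth factor axis. IGF2, the main fetal growth factor of the family, has a probe with levels of 4.89, 4.76, 4.64 and 4.15 on the preterm arrays and 4.06, 3.69, 3.35 and 3.49 near term. The stages did not overlap, though preterm array 4 and near-term array 1 lay close together. The change was -0.96 ± 0.19 (adjusted p = 0.0340), or 1.95-fold lower. Without 1 array it was called in 2 of 8 cases, with adjusted p from 0.0188 to 0.180. The call was also lost after median centring (-1.22, adjusted p = 0.195), with the other background correction (-0.98, 0.154) and in the fit of the 8 ductus arrays alone (0.418). The brighter IGF2 probe, which represents the gene in the counts, has 3 of its 8 spots marked as outliers by the scanner software and was fitted on 3 preterm and 2 near-term arrays. Its levels were 6.41, 6.27 and 6.07 on preterm arrays 2 to 4 and 5.48 and 5.17 on near-term arrays 2 and 3. Again no near-term value reached a preterm one, and the change of -0.92 ± 0.34 was not called (adjusted p = 0.326). In the aorta the called probe fell by 1.09 (adjusted p = 0.0133).

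IGFBP2, a binding protein that holds insulin-like growth factors in the tissue, had levels of 4.26, 3.68, 4.15 and 4.08 on the preterm arrays and 2.59, 2.96, 2.67 and 3.18 near term. All 4 near-term arrays were lower, with the smaller gap set by preterm array 2 and near-term array 4. The means were 4.04 ± 0.26 and 2.85 ± 0.27 (SD, n = 4), a change of -1.19 ± 0.26, or 2.29-fold lower (adjusted p = 0.0495). This call lies at the threshold: without any 1 of the 8 arrays the adjusted p was 0.0530 to 0.197, and the gene's other probe, at -1.20, missed it (0.0675). Within the low-limit arrays the difference was -0.85 and within the high-limit arrays -1.54. The aortic fall was larger in size, at -1.85 ± 0.26 (adjusted p = 0.00119), but the difference between the vessels was 0.65 ± 0.36 and was not called (unadjusted p = 0.0865). Newborn ductus arrays stood at 1.75 ± 0.52.

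The other tested genes of this axis had no call. IGFBP4, a binding protein that limits growth factor action, had levels of 5.86, 5.43, 5.80 and 5.96 on the preterm arrays and 5.12, 5.69, 5.02 and 5.31 near term. Near-term array 2 lay inside the preterm range, and the difference was -0.48 ± 0.17 (adjusted p = 0.277). GHR, the growth hormone receptor, differed by 1.01 ± 0.40 (0.343) and IGF1 by 0.31 ± 0.71 (0.850). Over the 15 tested genes of the axis 1 was called, against 2 of all 777 named genes (0.257%). The median change of the axis was 0.31, against 0.47 over all 777 named genes. Stages without overlap were found for 2 of the 15, both lower, where 1.93% of all named genes had no overlap on that side.

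A single named gene had a probe that rose, CD9, a tetraspanin of the cell membrane that partners with integrins. Levels on that probe were -2.53, -3.09, -2.91 and -2.39 on the preterm arrays and -1.79, -1.89, -1.33 and -1.52 near term. The lowest near-term array was above the highest preterm array. The rise was 1.09 ± 0.22, or 2.13-fold (adjusted p = 0.0352). Its brighter probe, which represents the gene, also had no overlap but differed by 0.66 ± 0.23 (adjusted p = 0.272). The call was lost when any 1 array other than near-term array 2 was left out (adjusted p up to 0.180) and after quantile normalisation, where the difference was 0.78 (0.430). In the aorta the same probe differed by 0.95 (0.0655).

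**Figure D3:**
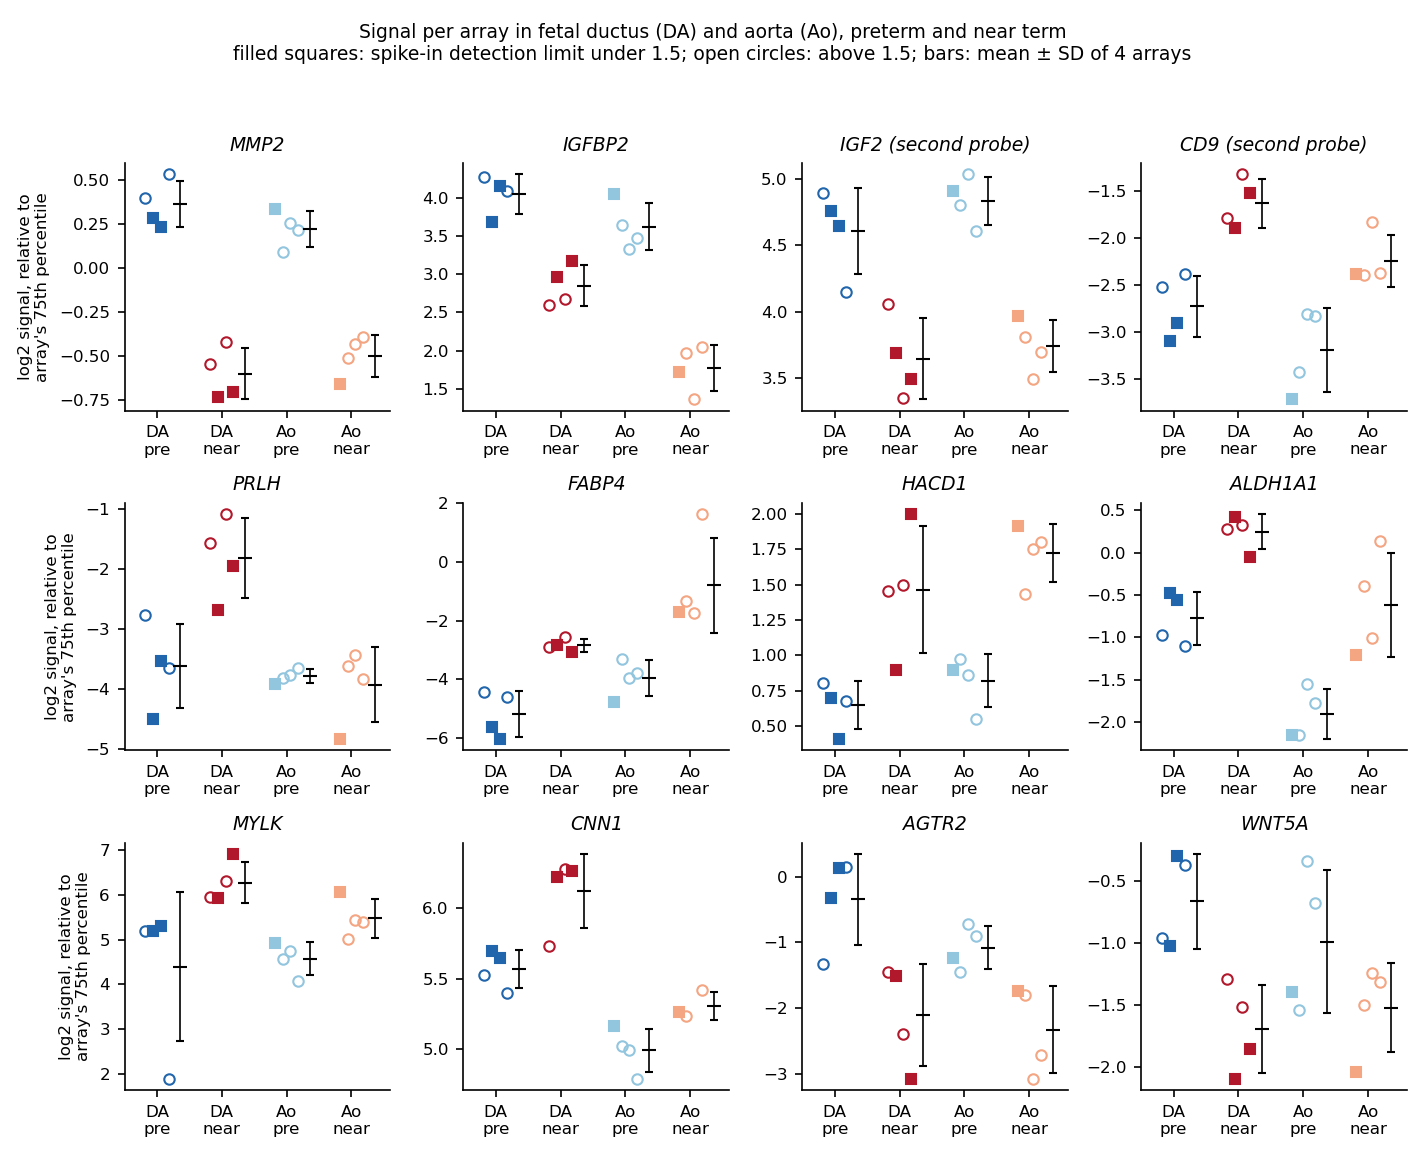
Log2 signal relative to the array's 75th percentile for 12 genes, each point 1 array of the ductus (DA) or aorta (Ao), preterm (pre) or near term (near); filled squares have a detection limit under 1.5 and open circles above it, and bars are the mean ± SD of 4 arrays. MMP2, IGFBP2 and IGF2 are lower near term in both vessels, CD9 is higher in both, and PRLH differs by 1.80 in the ductus and by -0.14 in the aorta.

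Most of the called probes, 39 of 44, carry no gene name in the array's annotation and are given by probe name. The smallest p belonged to A_70_P033441, whose level was 4.83, 5.04, 4.71 and 5.08 preterm and 3.26, 3.35, 3.23 and 3.15 near term. The stages were far apart, with little spread within each, and the change was -1.67 ± 0.14, or 3.18-fold lower (adjusted p = 4.27e-06). It stayed called without any 1 array and was among the 2 calls left in the fit of the ductus arrays alone (0.0465). Its newborn ductus level was lower still, at 1.64 ± 0.12 (SD, n = 4).

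The largest rises were at A_70_P006071 and A_70_P059801. A_70_P006071 had levels of -2.29, 0.43, 0.18 and -1.49 preterm and 2.61, 1.15, 2.08 and 2.99 near term, a rise of 3.00 ± 0.53, or 8.02-fold (adjusted p = 0.0148). A_70_P059801 had levels of -2.17, -0.53, -0.35 and -2.85 preterm and 1.75, 0.46, 2.06 and 1.54 near term, a rise of 2.93 ± 0.49, or 7.60-fold higher (adjusted p = 0.0106). For both, preterm arrays 1 and 4 were the lowest, and the difference within the high-limit arrays (4.24 and 4.41) was far larger than that within the low-limit arrays (1.77 and 1.44). Both calls were lost after median centring (limma adjusted p = 0.0843 and 0.0681). They were also lost in the fit of the 8 ductus arrays alone (0.401 and 0.343). Without 1 array A_70_P006071 was called in 5 of 8 cases and A_70_P059801 in 7 of 8. The largest falls were -2.71 ± 0.52 at A_70_P023016 (adjusted p = 0.0224) and -1.96 ± 0.28 at A_70_P053951 (adjusted p = 0.00240). A_70_P023016 had preterm levels of -1.06, -1.78, -2.64 and -3.05 and near-term levels of -5.08, -5.84, -4.52 and -3.91, without overlap. With the other background correction the A_70_P023016 difference was -0.92 and was not called (adjusted p = 0.289), and without 1 array the call held in 3 of 8 cases. For A_70_P053951 the preterm levels of -3.50, -3.76, -3.55 and -3.22 lay together, and the near-term levels were -6.31, -5.41, -5.15 and -4.99. Only 2 of those 4 near-term arrays were well above background, and with the other background correction the difference was -0.17.

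The same stages of the aorta, on arrays of their own but on the same slides, served to ask whether the ductus matures apart from its neighbour. There 69 of 13997 probes were called (0.493%), 32 higher (0.229%) and 37 lower (0.264%) near term, with 1454 at an unadjusted p under 0.05 (10.4%). Of the 44 ductus calls, 20 were called in the aorta in the same direction, 8 higher and 12 lower, which is 45.5% of the ductus calls and 29.0% of the aorta calls. All 44 had an aorta estimate of the same sign. Over all tested probes the estimates in the vessels correlated with a Pearson r of 0.65 and a Spearman rho of 0.67, a description across probes that share slides. No probe was called for a difference between the vessels in how it changed (0 of 13997, limma), with 224 at an unadjusted p under 0.05 (1.60%). Within the high-limit arrays alone 1 probe was called for that difference. Within the low-limit arrays alone 13 were, but each aorta stage is then 1 array, assumed to vary like the other groups.

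**Figure D4:**
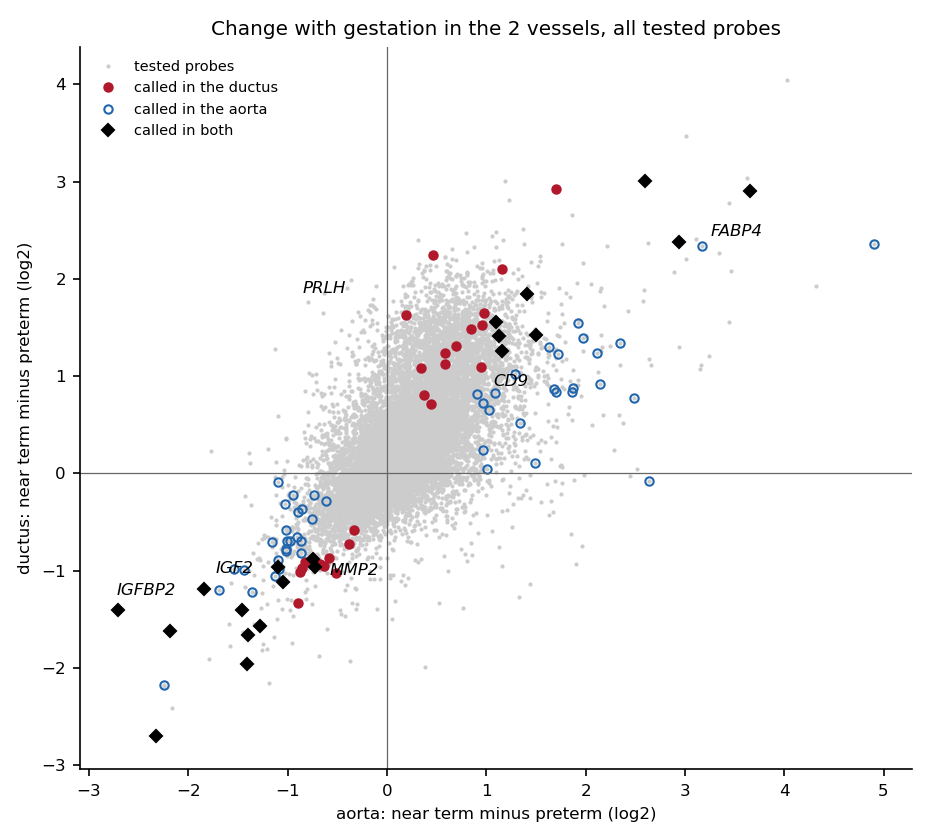
Change from preterm to near term in the ductus (vertical, log2) against the aorta (horizontal, log2) for the 13997 tested probes (grey), with probes called in the ductus (red), the aorta (blue rings) or both (black diamonds). All called ductus probes fall in the quadrants where both vessels change alike, and PRLH, which was not called, lies high on the vertical axis near the zero of the aorta.

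Among the vasoactive peptides and their receptors, 16 genes tested, none was called and the median was 0.23. There 1 had no overlap on the higher side and 1 on the lower, against 3.73% and 1.93% of all named genes. The highest was PRLH, prolactin-releasing hormone, a neuropeptide of the RFamide family. Its levels were -2.77, -4.49, -3.54 and -3.65 on the preterm arrays and -1.56, -2.68, -1.09 and -1.95 near term. All 4 near-term arrays exceeded all preterm arrays, by a narrow margin at preterm array 1 and near-term array 2. The difference was 1.80 ± 0.39, or 3.47-fold, with an adjusted p of 0.0519, just past the threshold. It was much the same within the low-limit arrays (1.70) and the high-limit arrays (1.89), and it was called with the limit class as a block (0.0131). In the aorta PRLH differed by -0.14 ± 0.39, and the difference between the vessels of 1.93 ± 0.55 had an unadjusted p of 0.00226 and an adjusted p of 1. Newborn ductus arrays stood at -4.29 ± 0.62 (SD, n = 4).

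AGTR2, the angiotensin II type 2 receptor of fetal vessels, had levels of -1.33, -0.32, 0.12 and 0.14 preterm and -1.45, -1.51, -2.40 and -3.07 near term. The stages did not overlap, but preterm array 1 and near-term array 1 lay close together and both groups were wide. The difference of -1.76 ± 0.56, or 3.38-fold lower, was not called (adjusted p = 0.218). Its other probe gave -1.81 (0.175), and in the aorta the gene differed by -1.25 (0.429). The type 1 receptor AGTR1, which mediates constriction, differed by -0.66 ± 0.37 (0.514), and that difference was 0.01 within the low-limit arrays and -1.32 within the high-limit arrays. NPY1R, the vascular receptor of neuropeptide Y, differed by -0.49 ± 0.34 (0.591) on its brighter probe and by -0.81 ± 0.25 without overlap on its other (0.192).

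The endothelin system, whose peptide constricts the ductus, gave no called change. EDN1, the peptide's gene, had levels of -1.26, -1.31, -1.90 and -1.68 preterm and -1.82, -1.68, -1.44 and -2.48 near term. The ranges overlapped and the difference was -0.32 ± 0.34 (adjusted p = 0.696). EDNRA, the receptor of smooth muscle, differed by 0.23 ± 0.87 (0.913), and EDNRB, the receptor of endothelium, by 0.24 ± 0.50 (0.831). Both receptor values turned negative after median centring, at -0.034 and -0.020. GAL, the peptide galanin, differed by -1.27 ± 0.63 (0.456) and was well above background on 3 preterm and 2 near-term arrays.

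The prostanoid genes, which make, carry and sense the prostaglandins that hold the ductus open, also gave no call among 9 tested, and 0 had stages without overlap. Their median was 0.46, next to 0.47 over all named genes. PTGS1, cyclooxygenase 1, had the smallest p, with levels of 2.62, 2.19, 2.88 and 3.09 preterm and 2.07, 2.35, 2.02 and 2.02 near term. Only preterm array 2 reached into the near-term range. The difference of -0.58 ± 0.21 was not called (0.288), while in the aorta PTGS1 fell by 1.01 (adjusted p = 0.0279). The difference between the vessels was itself not called (unadjusted p = 0.154). PTGS2, cyclooxygenase 2, was at -1.95, -2.36, -1.81 and -1.40 preterm and -1.58, -1.59, -2.25 and -1.50 near term, overlapping throughout, with a difference of 0.15 ± 0.30 (0.825). Its newborn ductus level was 1.92 ± 0.33 (SD, n = 4). SLCO2A1, the prostaglandin transporter, differed by 0.72 ± 0.33 (0.430), by 0.28 within the low-limit arrays and by 1.15 within the high-limit arrays. PTGER4, the relaxing prostaglandin E2 receptor of the ductus, differed by 0.40 ± 1.16 (0.881) with 3 arrays of each stage well above background, and PTGFR by 1.14 ± 0.73 (0.565).

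The contractile apparatus of smooth muscle was represented by 8 tested genes, all well above background on all 8 arrays. None was called, but 3 had near-term arrays entirely above the preterm arrays: MYLK, CNN1 and MYL6. Over all tested probes 2.86% had no overlap in that direction, and over all named genes 3.73%. The median of the 8 genes was 0.22, against 0.09 over the 426 named genes bright on all 8 arrays. It was -0.04 after median centring, with 4 of the 8 below 0, and 0.36 after quantile normalisation. The actin genes ACTB and ACTG1 were on the lower side, at -0.25 and -0.21. CNN1, calponin, an actin-binding regulator of smooth muscle contraction, had levels of 5.53, 5.70, 5.65 and 5.40 preterm and 5.73, 6.22, 6.28 and 6.26 near term. Near-term array 1 was barely above the preterm range and the other 3 lay together above it. The difference was 0.56 ± 0.20, or 1.47-fold higher (adjusted p = 0.296), and it was 0.57 and 0.54 within the limit classes. MYL6, a myosin light chain, differed by 0.32 ± 0.19 (0.541).

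MYLK, the kinase that phosphorylates myosin and triggers contraction, had levels of 5.20, 5.19, 5.29 and 1.90 preterm and 5.95, 5.92, 6.30 and 6.91 near term. Preterm arrays 1 to 3 lay together below all near-term arrays, and preterm array 4 lay far lower still, on both MYLK probes. The difference of 1.87 ± 0.57 (0.192) was 1.04 without that array (0.405). The same array was low for PPP1R12A, the targeting subunit of myosin phosphatase, at -2.01 against 0.41 to 0.78 on the other preterm arrays, and its difference of 0.90 ± 0.49 (0.493) was 0.24 without it. COL3A1, collagen III, was at -3.11 there against -0.35 to 0.33, and its difference of 0.94 ± 0.49 (0.479) was 0.18 without it. What sets this array apart was not tested.

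In nitric oxide and cyclic nucleotide signalling, which relaxes smooth muscle, 11 genes were tested and 0 were called. Near-term arrays lay entirely above preterm arrays for 3.73% of all named genes and for 1 gene here. That gene was CAV1, caveolin 1, the scaffold of caveolae and a binding partner of nitric oxide synthase. Its levels were 0.21, 0.87, 0.75 and 0.58 preterm and 1.11, 1.41, 1.43 and 1.12 near term. The near-term arrays were tightly grouped above the preterm ones, with a difference of 0.66 ± 0.25 (adjusted p = 0.317). PRKG1, the cyclic GMP-dependent kinase, differed by 1.05 ± 0.35 (0.252), by 0.14 within the low-limit arrays and 1.97 within the high-limit arrays. NOS3, endothelial nitric oxide synthase, was at -0.38, -0.52, -0.82 and -0.32 preterm and -0.15, -1.01, -0.29 and -0.14 near term, with overlapping ranges and a difference of 0.11 ± 0.35 (0.886).

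Of the matrix itself, 7 genes were tested and none was called, with 3 above and 4 below 0 and a median of -0.18. COL1A1, collagen I, differed by -0.22 ± 0.31 (0.748). FBLN1, fibulin 1, an elastic fibre protein, differed by -0.38 ± 0.24 (0.565), and COL6A1 by 1.54 ± 1.06 (0.595) with 2 arrays of each stage above background. Among 16 tested proteases, inhibitors and integrins MMP2 was the 1 call, against 2 of all 777 named genes (0.257%). CTSS, the elastin-degrading cathepsin S, had levels of 1.77, 1.41, 1.74 and 1.43 preterm and 2.10, 1.98, 1.79 and 1.95 near term. The stages did not overlap, narrowly, between preterm array 1 and near-term array 3, and the difference was 0.37 ± 0.19 (0.486).

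Genes of cell division and protein synthesis lay on the lower side near term, with none called. Of 6 tested cell cycle genes 5 were below 0, with a median of -0.43, and 3 had near-term arrays entirely below the preterm ones, where 1.93% of all named genes did. All 6 were well above background on every array, and the list keeps a median below 0 within each limit class (-0.29 and -0.50). PCNA, the sliding clamp of DNA replication, ranged from 2.36 to 2.64 preterm and from 1.89 to 2.32 near term, a difference of -0.37 ± 0.28 (adjusted p = 0.616). TYMS, thymidylate synthase, was at 0.51, 0.40, 0.16 and 0.00 preterm and -0.62, -0.53, -0.04 and -0.11 near term, a difference of -0.59 ± 0.38 (0.563). Neither gene's stages overlapped. Both have small differences next to their own SE, and separation of 4 from 4 arrays is a weaker criterion than the call. MYC, a growth-promoting transcription factor, differed by -0.73 ± 0.36 (0.454), and the exception was CDKN1B, the cell cycle inhibitor p27, at 1.11 ± 0.41 (0.317).

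Of 19 ribosomal protein genes 17 were below 0, with a median of -0.19, and 17 were bright on all 8 arrays. RPL13 differed by -0.52 ± 0.22 (adjusted p = 0.386), RPL4 by -0.33 ± 0.15 (0.425) and RPL10 by -0.29 ± 0.18 (0.561). The median was -0.07 within the low-limit arrays and -0.40 within the high-limit arrays. In the plot of change by signal strength the median of the brightest bins also lies below 0 for the high-limit arrays.

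Hormone-activating enzymes were of interest because cortisol and retinoic acid mature the ductus in animals. HSD11B1, which makes active glucocorticoid inside cells, had levels of -3.74, -2.74, -3.74 and -2.67 preterm and -2.07, -2.41, -2.25 and -2.82 near term. Only near-term array 4 fell within the preterm range. The difference was 0.84 ± 0.40 (adjusted p = 0.443) in the ductus, while in the aorta the gene rose by 1.86 (0.0412), and the difference between the vessels was not called (unadjusted p = 0.0874). HSD11B2, the inactivating enzyme, differed by -0.49 ± 1.03 (0.831), and NR3C1, the glucocorticoid receptor, by 0.85 ± 0.81 (0.673) with 1 preterm and 2 near-term arrays above background. THRB, a thyroid hormone receptor, differed by -0.37 ± 0.23 (0.554). None of the 17 tested genes of this list was called or without overlap, and their median of 0.73 was 0.22 within the low-limit arrays. ALDH1A1, a retinaldehyde dehydrogenase that makes retinoic acid, was at -0.98, -0.48, -0.56 and -1.10 preterm and 0.29, 0.43, 0.33 and -0.05 near term. No array of 1 stage entered the range of the other, and the difference of 1.03 ± 0.26, or 2.04-fold, had an adjusted p of 0.103. In the aorta it rose by 1.29 (0.0279).

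Lipid genes and fat cell markers included the largest difference among the 777 named genes, that of UCP1, and a smaller but steadier one, that of FABP4. FABP4, the fatty acid-binding protein of adipocytes and of microvascular endothelium, had levels of -4.43, -5.62, -6.03 and -4.61 preterm and -2.90, -2.84, -2.55 and -3.07 near term. The near-term arrays were close together and well above every preterm array. The difference was 2.34 ± 0.55, or 5.05-fold (adjusted p = 0.0718), and it was called with the limit class as a block (0.0327). FABP4 was well above background on 3 of 4 preterm and all 4 near-term arrays, and the difference was 1.26 with the other background correction. It was larger within the low-limit arrays (2.87) than within the high-limit arrays (1.80), unlike the shift of dim probes as a whole. In the aorta FABP4 rose by 3.18 (0.0110), and newborn ductus arrays were higher again at -0.64 ± 0.49 (SD, n = 4).

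UCP1, the uncoupling protein of brown fat, was at -2.74, -8.56, -7.57 and -3.55 preterm and -1.74, -2.02, -0.85 and -3.93 near term. Preterm arrays 2 and 3 lay far below all others, 2 of 4 preterm arrays were above background, and the difference of 3.47 ± 1.44 was not called (0.371). FABP4 and UCP1 are adipocyte markers, and 7 of 8 tested markers were above 0, with a median of 0.43. Over all named genes 72.7% were above 0, with a median of 0.47. After quantile normalisation the median of the adipocyte markers was 0.04, with 3 of the 8 below 0. The summed linear signal of these markers ranged from 0.52 to 1.16 times the 75th percentile preterm and from 0.63 to 1.66 near term. The part of attached fat in these values was not tested. HACD1, an enzyme of very long chain fatty acid synthesis known from muscle, was at 0.81, 0.70, 0.41 and 0.68 preterm and 1.46, 0.90, 1.49 and 2.00 near term, without overlap. Its difference was 0.81 ± 0.19 (adjusted p = 0.0704), and in the aorta it rose by 0.90 (0.0352). CPT1A, which admits fatty acids to mitochondria, differed by 0.77 ± 0.27 (0.293), and PPARA by 0.83 ± 0.48 (0.524). Over the 20 tested lipid genes the median was 0.28, with 12 above 0, and it was -0.05 over the 13 that were bright on all 8 arrays.

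With the limit class as a block 169 probes were called (1.21%), 117 higher (0.836%) and 52 lower (0.372%), all 44 of the first fit among them. The block leaves in place the higher limits of the near-term ductus arrays within each class. Of the 777 genes 10 were then called (1.29%), MMP2 and IGFBP2 lower and 8 higher. The 8 were PRLH, FABP4, HACD1, SLC2A4, SLC7A1, ADIG, OSTN and HCRTR2, named here because they were called and not by an earlier rule. SLC2A4, the insulin-dependent glucose transporter of muscle and fat, was at -0.48, -3.15, -2.47 and -1.28 preterm and 0.07, -1.08, -0.26 and -1.32 near term. Its stages overlap, but within each limit class both near-term arrays were above both preterm arrays, and the difference was 1.20 ± 0.56 (adjusted p = 0.433 without the block, 0.0256 with it). SLC7A1, a cationic amino acid transporter, ADIG, an adipocyte protein, OSTN, a bone and muscle peptide, and HCRTR2, an orexin receptor, were not well above background on any preterm array. They were above it on 2 or 3 near-term arrays, and their near-term values were set against the lowest measurable signal. Their change was then 1.77-fold higher for SLC7A1, 2.39-fold for ADIG, 3.46-fold for OSTN and 1.98-fold for HCRTR2. These are not lower bounds, since some near-term values also lay below background and were taken as measured. Under other settings the log2 difference was as low as 0.75 for SLC7A1, 0.93 for ADIG, 0.98 for OSTN and 0.67 for HCRTR2. For SLC7A1, ADIG and HCRTR2 near-term arrays 1 and 3 were the highest, the pair with the most spots above background, with ADIG at -4.08 and -4.15 there and at -6.28 and -7.17 on arrays 2 and 4. OSTN was at -2.77, -7.87, -4.46 and -3.91. Without the block the adjusted p for ADIG was 0.235, 0.289 with the other background correction and 0.511 after quantile normalisation.

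Patterning genes, which shape the neural crest and outflow vessels of the embryo, had 2 of 11 members without overlap and none called. Over all named genes 5.66% were without overlap. SNAI2, a transcription factor of neural crest and mesenchyme, was at 0.06, -0.04, 0.00 and -0.40 preterm and 0.84, 0.14, 0.99 and 0.61 near term. Near-term array 2 was just above the preterm range, and the difference was 0.74 ± 0.20 (adjusted p = 0.134). Its other probe overlapped, at 0.55 (0.408), and the aorta differed by 0.15 (0.901). WNT5A, a non-canonical WNT ligand, was at -0.96, -1.03, -0.30 and -0.38 preterm and -1.29, -2.09, -1.52 and -1.85 near term. All near-term arrays were lower, with a difference of -1.02 ± 0.38 (0.310) that was -1.31 and -0.74 within the limit classes. HOXA7 differed by 0.57 ± 0.27 (0.442).

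Transforming growth factor genes numbered 31, with none called and none without overlap. TGFB1 differed by -0.49 ± 0.20 (0.349), BMP2 by 1.05 ± 0.48 (0.427), and INHBA, the activin A subunit, by 0.08 ± 0.20 (0.867), a value that turned to -0.18 after median centring. TGFBR2 was not well above background on any preterm array and was above it on 2 of 4 near-term arrays. Against the lowest measurable signal it was 2.19-fold higher, and its difference was not called (adjusted p = 0.268). Under other settings the TGFBR2 log2 difference was as low as 0.48. TNFRSF11B, osteoprotegerin, a decoy receptor that blocks vascular calcification signals, was at 0.13, -0.55, 0.16 and -0.30 preterm and 0.24, 0.31, 1.25 and 0.27 near term. The stages were narrowly parted, with near-term array 3 high, and the difference was 0.66 ± 0.26 (0.343).

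Genes of glucose use and hypoxia gave no call. Of 20 glycolytic genes none was called, 13 were above 0, and the median was 0.16. ENO3, muscle enolase, had the smallest p, at 0.98 ± 0.27 (adjusted p = 0.141), with levels of -1.97, -1.70, -1.28 and -2.76 preterm and -0.74, -1.59, -0.62 and -0.84 near term. Near-term array 2 lay among the preterm arrays, and the difference was 0.28 within the low-limit arrays. SLC16A1, a lactate transporter, differed by 0.98 ± 0.39 without overlap (0.354), and by 0.53 without preterm array 4. SLC2A3, the glucose transporter GLUT3, differed by 0.26 ± 0.29 (0.702), and VEGFA, an angiogenic factor, by 0.77 ± 0.72 (0.669).

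No innate or interferon gene was called, and how many lay above 0 moved with the scaling. Of 36 tested inflammatory genes 3 were below 0 with a median of 0.64, against 10 below 0 with a median of 0.38 after median centring and 15 with a median of 0.12 after quantile normalisation. Under the first scaling 33 were above 0, and of the 20 that were bright on all 8 arrays 18 were, with a median of 0.37, where the 426 named genes bright on all 8 arrays had 0.09. Within the low-limit arrays the list's median was 0.19. SAA3, the serum amyloid A of tissues, was at 0.31, -1.47, -0.12 and 0.70 preterm and 1.61, 1.32, 1.84 and 1.74 near term. The near-term arrays were level with each other and all above the preterm arrays, which were scattered, and the difference was 1.77 ± 0.66 (0.320). TLR4, the endotoxin receptor, differed by 0.89 ± 0.27 (0.192) and NFKBIA, the NF-kappa-B inhibitor, by 0.87 ± 0.30 (0.277). The cytokines IL1A and IL6 differed by 0.28 ± 0.73 (0.867) and 0.65 ± 0.54 (0.638), and IL6 was well above background on 0 preterm arrays and 1 near-term array.

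ISG15, a ubiquitin-like protein induced by interferon, was at -0.56, -1.95, -1.94 and -2.18 preterm and 0.16, 0.96, -0.38 and -0.44 near term. All near-term arrays were higher, though preterm array 1 came close, and the difference was 1.73 ± 0.54 (adjusted p = 0.209). MX1, an antiviral GTPase of the same response, differed by 1.32 ± 0.44 (0.259) with overlap. Within the low-limit arrays the MX1 difference was 2.01 and within the high-limit arrays 0.64.

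**Figure D5:**
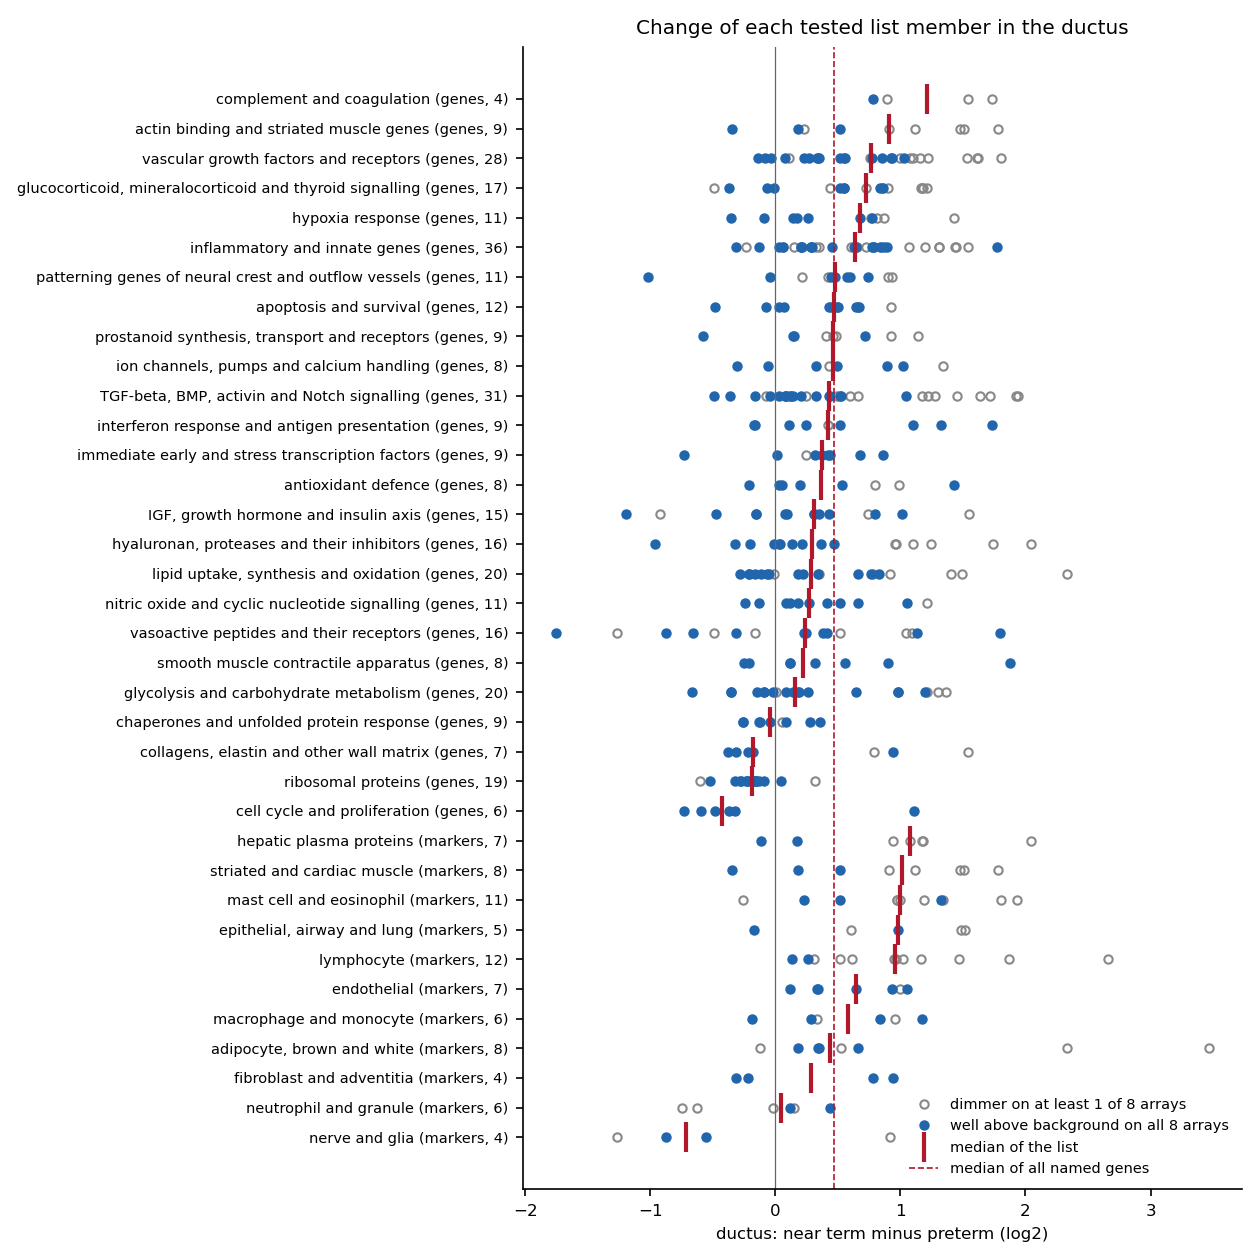
Change from preterm to near term in the ductus (log2) of each tested member of the gene lists and cell type marker lists with 4 or more tested members; filled points were well above background on all 8 fetal ductus arrays, open points were not, red bars are list medians and the dashed line is the median of all 777 named genes (0.47). The nerve and glia, cell cycle, ribosomal, matrix and chaperone lists have medians below 0, from -0.72 for nerve and glia to -0.04 for chaperones. Lists with medians near 1 consist mostly of open points.

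The labelled tissue was checked against markers. The smooth muscle genes CNN1, MYLK and MYL6 and the endothelial genes TIE1 and NOS3 were well above background on all 8 arrays. All 7 tested endothelial markers were above 0, with a median of 0.65, where 72.7% of all named genes were above 0. The summed signal of these markers was 0.92 to 1.34 preterm and 0.91 to 2.07 near term. Their median was 0.20 within the low-limit arrays and 0.84 within the high-limit arrays. After quantile normalisation it was 0.13, with 1 of the 7 below 0. TIE1, an endothelial receptor kinase, differed by 0.93 ± 0.37 without overlap (adjusted p = 0.350), and SELP, P-selectin, by 0.65 ± 0.38 (0.528). Of 8 tested markers of striated and cardiac muscle 3 were bright on all 8 arrays, and of 12 lymphocyte markers 2. No tested marker of any list was dark on all 8.

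Mast cell markers had a summed signal of 10.7 to 15.2 preterm and 17.6 to 21.8 near term, most of it from the tryptase TPSB2. Of 11 markers 10 were above 0, against 72.7% of all named genes, with a median of 1.00, or 0.29 after quantile normalisation. Only 3, FCER1A, FCER1G and TPSB2, were well above background on all 8 arrays. FCER1A, a chain of the IgE receptor, was at -0.04, -0.24, 0.01 and 0.28 preterm and 0.31, 2.09, 1.55 and 1.38 near term. Near-term array 1 was just above the preterm range and the other 3 well above it, for a difference of 1.33 ± 0.39, or 2.51-fold (adjusted p = 0.174). TPSB2, mast cell tryptase, ranged from 3.01 to 3.52 preterm and from 3.61 to 4.09 near term, a difference of 0.51 ± 0.27 without overlap on this probe (0.479). Both differed more within the low-limit arrays (1.85 and 0.88) than within the high-limit arrays (0.80 and 0.15). The newborn ductus means were 0.07 for FCER1A and 1.64 for TPSB2.

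IGHM, the heavy chain of IgM, was above background on 0 preterm and all 4 near-term arrays. Under the first scaling it was at least 5.61-fold higher (adjusted p = 0.218), while its log2 difference was as low as 1.00 under other settings. All 12 tested lymphocyte markers were above 0, with a median of 0.96 and a summed signal of 0.23 to 1.04 preterm and 0.49 to 1.79 near term, and the median over all dimmer probes was 0.93. After quantile normalisation 5 of the 12 were below 0 and the median was 0.02. IL2RA, a chain of the interleukin 2 receptor, was above background on 0 preterm and 2 near-term arrays. Against the lowest measurable signal it was 2.32-fold higher, and its difference was not called (adjusted p = 0.296). Under other settings the IL2RA log2 difference was as low as 0.48. Of 6 macrophage markers 5 were above 0, against 72.7% of all named genes. The summed signal of the 6 was 0.79 to 1.18 preterm and 0.80 to 1.85 near term. ITGAM differed by 0.96 ± 0.37 (0.328) and CD86 by 0.83 ± 0.34 (0.363), both with overlap. The blood markers went the other way: HBB, beta globin, differed by -0.78 ± 0.83 (0.692) and AHSP, a globin chaperone, by -0.95 ± 1.13 (0.714), and a dimmer HBB probe gave 2.41 ± 1.10 (0.428). The part of any of these cells in the differences above was not tested.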

How the data were processed

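Total RNA of 24 vessel samples was hybridised to 1-colour Agilent sheep arrays. The deposited intensity values are the scanner's, made with Agilent Feature Extraction 9.5.3.1 (per the file headers), with spatial and multiplicative detrending on. From the 15208 non-control spots per array, outlier-flagged spots were left out, log2 processed signal was centred on the array's 75th percentile, and spots of a probe were averaged. The 13997 probes well above background on at least 4 of 24 arrays were tested with limma 3.58.1 (R 4.3.3; 6 group means, two-sided, Benjamini-Hochberg over all probes). The alternative background correction was normexp with an offset of 50. The test was also run on simulated data with independent noise, of equal spread on every array for a given probe. That simulation held no limit classes, slide effect or outlying array, so it cannot show how these affect the calls.

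Probe names came from the array annotation, matched to RefSeq sheep symbols and by a table made by hand; 13561 probes stayed unnamed. Where a gene has several probes, the one of highest mean signal stands for it. Genes described are the called ones, a set panel, and the 2 to 4 members of each described list with the smallest p, plus the largest called probes without a name; the genes called with the limit class as a block were added after their values were seen. The contrast, members and lists were chosen with earlier results of these data known. Replicate numbers do not mark animals shared between stages, since the stages are different fetuses. Deviations of same-numbered ductus arrays correlated at 0.78, 0.59, -0.66 and -0.58. The value was positive where both arrays share a limit class (numbers 1 and 2) and negative where they do not (numbers 3 and 4). These correlations therefore cannot show whether animals are paired. No 2 arrays held identical values. The number of arrays limits the precision. Values of the authors' own normalisation were not used here. The values of 1 list member are not reported here.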

Additional observations from a re-analysis of the deposited data

Results flagged for a closer look

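In groups of 4 ductus arrays, 1 array lay far from the 3 others of its stage for 12 genes, by Dixon's criterion at the 95% level; chance flags about 1 in 20 groups, or 8.3 of the 166 tested. On preterm array 4, which stands apart as a whole, MYLK was at 1.90 against 5.19 to 5.29 on the others, PPP1R12A at -2.01 against 0.41 to 0.78, SLC16A1 at -3.97 against -2.27 to -2.03, and NFKBIA at -0.31 against 1.06 to 1.30. On preterm array 1, ISG15 was at -0.56 against -2.18 to -1.94 and EDNRB at -4.02 against -4.67 to -4.63. TGFBR2 on that array was at -6.75 against -7.79 to -7.63 and IL2RA at -6.73 against -7.57 to -7.50, with neither gene above background on any preterm array. Among the near-term arrays, CNN1 was at 5.73 on array 1 against 6.22 to 6.28, NOS3 at -1.01 on array 2 against -0.29 to -0.14, PTGS2 at -2.25 on array 3 against -1.59 to -1.50, and TNFRSF11B at 1.25 on array 3 against 0.24 to 0.31.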

How the results depend on the processing

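The count of 44 called ductus probes was 28 with normexp background correction, 12 after median centring, 2 in the fit of the 8 arrays compared, 0 within the arrays of low detection limit (limma) and 3 within those of high limit, 6 without near-term arrays 1 and 3, and 9 at an adjusted p under 0.01. It rose to 169 with the limit class as a block, 4028 with array weights, 85 with an intensity trend, 90 over probes bright on all 8 arrays and 82 with quantile normalisation and the limit block together. Leaving out 1 ductus array gave 11 to 54. The 69 aorta calls became 14 after median centring, 12 in the fit of the groups compared, 2 within the high-limit arrays, 16 at 0.01, 104 with the limit block, 287 within the low-limit arrays, 1041 with array weights, 108 with the trend, 107 over the bright probes, 118 with quantile normalisation and the limit block, and 18 to 53 without 1 array. The vessel difference had 13 calls within the low-limit and 1 within the high-limit arrays, and 0 under every other setting run. Each aorta stage has 1 low-limit array, assumed to vary like the other groups, so the 287 and 13 calls have no spread of their own. With the replicate number as a block 62 ductus probes were called; the numbers do not pair animals. The all-8 filter, the joint quantile and limit setting and the removal of near-term arrays 1 and 3 were chosen after seeing the data. The causes were not tested.

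Genes that were not called changed sign under some settings. After median centring NOS3 was -0.15, EDNRA -0.034, EDNRB -0.020, PTGS2 -0.11 and INHBA -0.18. After quantile normalisation, with or without the limit block, EDNRB was -0.43, PTGS2 -0.13, NR3C1 -0.51 and IL6 -0.18. With normexp COL1A1 was 0.11, GAL 0.17, NPY1R 0.37, HSD11B2 0.55, THRB 0.22, INHBA -0.14 and AHSP 0.085. Array weights gave HSD11B2 1.24, INHBA -0.038 and AHSP 0.40, and the mean over probes gave HBB 0.81. Within the low-limit arrays COL3A1 was -0.32, PPP1R12A -0.19, AGTR1 0.0080, EDNRA -0.30, EDNRB -0.24, PTGER4 -0.27 and IL6 -0.19; within the high-limit arrays COL1A1 was 0.17, NPY1R 0.32, PTGS2 -0.24, HSD11B2 0.52 and INHBA -0.0063. Without near-term arrays 1 and 3 IGF1 was -0.83, COL6A1 -0.22, NOS3 -0.064, EDNRA -1.34, EDNRB -0.39, PTGFR -0.030, PTGER4 -1.42, NR3C1 -0.77 and PPARA -0.049. Leaving out 1 array gave IGF1 -0.16 to 0.83, EDNRA -0.38 to 0.96, PTGER4 -0.24 to 1.29, HSD11B2 -1.22 to 0.49, PTGS2 -0.012 to 0.32 and INHBA -0.0016 to 0.15.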
